A study of Mus musculus with 6 samples.

Results

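The myogenic regulatory factors (MRFs) and the MEF2 factors are the transcription factors that set and carry out the skeletal muscle programme. Their 7 genes, *Myod1*, *Myog*, *Myf5*, *Myf6*, *Mef2a*, *Mef2c* and *Mef2d*, were taken by symbol and matched to the Ensembl identifiers of the FPKM data through the GENCODE M21 annotation. All 7 were found among the 14548 genes listed. FPKM is the number of fragments on a gene, scaled to its exon length and to all mapped fragments of the library. The libraries were made from total RNA of C2C12 cells, a mouse line of myoblasts, which are the dividing precursors of muscle fibres. The WT group has 3 libraries of wild-type cells. The MSTN-KO group has 3 libraries of C11 cells, made by electroporating a Cas9 nickase plasmid with a guide against exon 3 of *Mstn*, the gene of the secreted growth inhibitor myostatin. According to the methods, C2C12 cells were grown in DMEM with 10% fetal bovine serum, and the time in culture before RNA extraction was not found in the sources used here. The sample labels also carry the name C11 for the WT libraries, so their genotype was used to group them. All MSTN-KO libraries are of these C11 cells. The methods do not say whether they are a single clone, and nothing says whether replicates were separate cultures, so p-values measure the spread between these libraries.

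In muscle precursors MYF5 and MYOD1 commit the cell to the muscle lineage. Myogenin (*Myog*) and MRF4 (*Myf6*) act later, when cells leave the cell cycle and differentiate. The MRFs are basic helix-loop-helix proteins that pair with E proteins and bind the E-box, and MEF2 proteins bind an A/T-rich site and act together with the MRFs on muscle promoters. The *Myog* promoter is a textbook case, where both kinds of site stand next to a MEF3 site, another motif of muscle promoters.

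The *Myog* promoter is shown because *Myog* differed most of the 7 genes between the groups. Promoter sequences came from RefSeq (GRCm38.p6) and held the 250 bases before each start. Of the members, 5 had a promoter among these sequences. The RefSeq start of *Myog* differs from the GENCODE one, so the window overlaps the GENCODE gene by 15 bases. The *Myog* window lies on the plus strand at chr1:134289754-134290003. Capitals mark, from left to right, an E-box (CANNTG), the MEF3 site (TCAGGTTTC), a match to the MEF2 consensus with its last base left free, and a second E-box. Both strands were searched, and the matches do not overlap.
*Myog*: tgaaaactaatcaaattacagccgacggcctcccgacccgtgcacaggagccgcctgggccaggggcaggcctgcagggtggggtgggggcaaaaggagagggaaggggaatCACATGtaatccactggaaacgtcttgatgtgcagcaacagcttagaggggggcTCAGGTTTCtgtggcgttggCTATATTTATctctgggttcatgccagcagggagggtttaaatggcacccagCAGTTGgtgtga

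The first E-box of *Myog* begins 138 bases before the start and the second 12 bases before it. The MEF3 site begins 84 bases and the MEF2 match 64 bases before the start. Of all 32851 promoters of this length, 66.2% held an E-box, 7.03% the MEF2 match with a free last base, 2.92% the full MEF2 consensus and 0.387% the MEF3 site. The *Myog* window matched the MEF2 consensus only with the last base free. A match is a description of letters and not a measured binding site. For comparison, *Myf5*, whose levels overlapped between the groups, has its window on the minus strand at chr10:107486135-107486384. It held none of these motifs and so has no capitals.
*Myf5*: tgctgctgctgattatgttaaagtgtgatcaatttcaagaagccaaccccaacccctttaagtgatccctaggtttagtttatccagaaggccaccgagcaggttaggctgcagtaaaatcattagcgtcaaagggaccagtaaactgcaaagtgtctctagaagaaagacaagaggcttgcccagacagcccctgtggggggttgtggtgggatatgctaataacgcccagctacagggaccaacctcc

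The windows of *Mef2a* and *Mef2d* also held 0 matches to the motifs searched. *Mef2c* has 3 annotated starts. The window of the first held 2 E-boxes and a MEF2 match with a free last base, that of the second held 0 matches and that of the third 1 E-box.

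The groups differed in *Myog*, *Myod1* and *Mef2a*, which were lower in MSTN-KO, while *Myf5* and *Mef2d* overlapped between the groups. *Myf6* and *Mef2c* were under 1 FPKM in all 6 libraries, lower still in MSTN-KO, and did not pass the filter on low values. The values were compared as log2(FPKM + 1) with limma for the 10837 genes that reached 1 FPKM in any library, and called at a Benjamini-Hochberg adjusted p under 0.05. For genes with low FPKM this scale gives folds that are too small. Of the 5 members that passed the filter, 3 were called lower and 0 higher. Over all tested genes, 8.96% were called lower and 8.78% higher. Scaling each library to the same summed FPKM shifted the median over all genes by -0.26 on the log2 scale, with 2367 genes then called lower and 350 higher, and turned *Myf5* to -0.19.

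**Figure D1:**
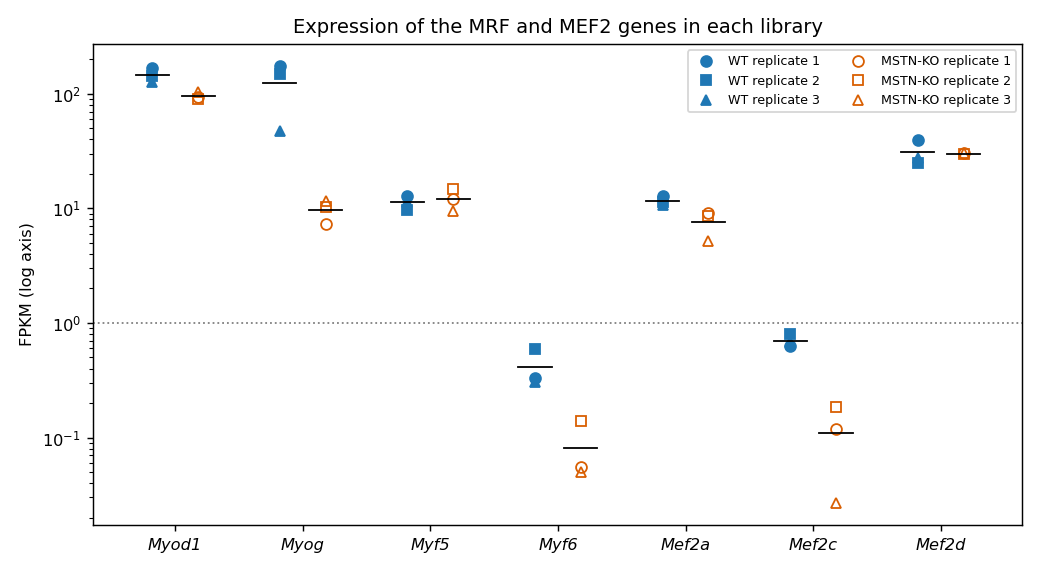
FPKM (log axis) of the 7 genes in the 3 WT libraries (filled) and the 3 MSTN-KO libraries (open), with a bar at each group mean and a dotted line at 1 FPKM. *Myog* stood at 47.3 FPKM in WT replicate 3 and at 148 and 175 FPKM in the other WT libraries, and all 3 MSTN-KO libraries lay below them.

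Depth had to be estimated from the values. In genes with 1 annotated transcript, the smallest steps of FPKM times exon length clustered at the value of a single fragment, which put the libraries at an estimated 15400000 to 20000000 fragments. This estimator was chosen after the values had been seen. The targeted gene *Mstn* was between 0 and 0.0586 FPKM in all 6 libraries, so its RNA could not check the labels. In the study, genomic sequencing showed the target sequence disrupted in C11 cells, and a Western blot showed no MSTN protein in them. Those tests were of the cells and not of these libraries. Of the 12 myoblast markers listed, 10 were analysed, and *Des*, the muscle intermediate filament gene, had at least 325 FPKM in every library. Markers of endothelial cells (5 analysed) reached at most 0.0996 FPKM, and those of macrophages (3 analysed) at most 2.39 FPKM.

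*Myod1* (ENSMUSG00000009471, chromosome 7 from 46376474 to 46379099, GRCm38) encodes the factor that commits cells to muscle. It had 167, 142 and 126 FPKM in WT replicates 1, 2 and 3 and 93.8, 90.8 and 104 FPKM in the MSTN-KO replicates. No values overlapped, although the lowest WT library was only 1.22 times the highest MSTN-KO library. The means were 145 ± 21.0 FPKM (SD, n = 3) in WT and 96.1 ± 6.69 FPKM in MSTN-KO. The log2 fold change was -0.58 (SE 0.13, limma adjusted p = 0.00986). In WT, replicate 3 had 0.814 times the mean of the other two. *Myod1* stayed called without any single library, with adjusted p between 0.00757 and 0.0401.

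*Myog* (ENSMUSG00000026459, chromosome 1 from 134289989 to 134292548) encodes myogenin, which drives terminal differentiation. It had 175, 148 and 47.3 FPKM in WT replicates 1, 2 and 3 and 7.33, 10.2 and 11.6 FPKM in the MSTN-KO replicates. WT replicate 3 stood apart from the other WT libraries, at 0.293 times their mean, and was still 4.09 times the highest MSTN-KO library. The group means of 123 ± 67.3 FPKM and 9.72 ± 2.18 FPKM (SD, n = 3) differed 12.7-fold. On the log2 scale *Myog* fell by 3.36 (SE 0.36, limma adjusted p = 3.98e-05). Without WT replicate 3 the log2 fold change was -3.94, and over all single libraries left out it lay between -3.94 and -3.00. Of the 10837 tested genes, 13 including *Myog* had a log2 fold change as low or lower. *Myog* was the only one of the 5 tested members that met the study's criteria for a downregulated DEG, which are a log2 fold change below -1 with p under 0.05 before adjustment and which 2.3% of tested genes met. It lies on chromosome 1, where the median over 627 tested genes was -0.25 on the log2 scale, and the part of this in the result was not tested.

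*Myf5* (ENSMUSG00000000435, chromosome 10 from 107482908 to 107486134), an early factor of the lineage, had 12.9, 9.73 and 11.3 FPKM in the WT replicates and 12.1, 14.7 and 9.49 FPKM in MSTN-KO. The groups overlapped, and the highest and the lowest value were both from MSTN-KO. The log2 fold change of 0.08 did not pass (limma adjusted p = 0.784), and its 95% interval ran from -0.29 to 0.44. WT replicate 3 lay at 1.00 times the mean of the other WT libraries, unlike for *Myog*.

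*Myf6* (ENSMUSG00000035923, chromosome 10 from 107492853 to 107494737), the neighbour of *Myf5*, encodes MRF4, which marks late differentiation and mature fibres. It had 0.328, 0.596 and 0.308 FPKM in the WT replicates and 0.0557, 0.140 and 0.0499 FPKM in MSTN-KO. By the steps described above these are about 7, 15 and 7 fragments in WT and about 1, 3 and 1 in MSTN-KO. Again the groups stood apart, but values this low carry a large counting error. Without the filter, limma called *Myf6* lower (log2 fold change -0.38, SE 0.08, adjusted p = 0.0305), where 6.23% of 14548 genes were called lower.

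*Mef2a* (ENSMUSG00000030557, chromosome 7 from 67231163 to 67372858) is expressed in many tissues as well as in muscle. It had 12.9, 11.4 and 10.6 FPKM in the WT replicates and 9.07, 8.58 and 5.20 FPKM in the MSTN-KO replicates. All MSTN-KO libraries were lower, the lowest WT library being 1.17 times the highest of them. The means were 11.6 ± 1.16 and 7.62 ± 2.11 FPKM (SD, n = 3), and the log2 fold change was -0.58 (SE 0.18, limma adjusted p = 0.0454). The call was narrow and was lost when WT replicate 1, 2 or 3 or MSTN-KO replicate 3 was left out, with adjusted p of 0.138, 0.106, 0.0615 and 0.123. Without MSTN-KO replicate 3 the log2 fold change was -0.36, and with length and GC content corrected for it was -0.39 (limma adjusted p = 0.0489).

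*Mef2c* (ENSMUSG00000005583, chromosome 13 from 83504034 to 83667080) is the MEF2 gene that is switched on as muscle cells differentiate. It had 0.627, 0.795 and 0.683 FPKM in the WT replicates and 0.119, 0.183 and 0.0268 FPKM in MSTN-KO replicates 1 to 3. The lowest WT library was 3.43 times the highest MSTN-KO library. The WT libraries lay within 1.27-fold of each other, and replicate 3, low in *Myog*, stood between the other two. The group means of 0.702 ± 0.0858 and 0.110 ± 0.0785 FPKM (SD, n = 3) differed 6.40-fold. *Mef2c* passed limma's test without the filter (log2 fold change -0.62, SE 0.07, adjusted p = 0.00257). With a pseudocount of 0.1 and no filter the log2 fold change was -2.01 (limma adjusted p = 0.00532), where 6.97% of genes were called lower. On chromosome 13 the median over 410 tested genes was -0.34 on the log2 scale, and the part of this in the result was not tested.

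*Mef2d* (ENSMUSG00000001419, chromosome 3 from 88142372 to 88172086), a broadly expressed member, had 39.9, 24.8 and 27.4 FPKM in the WT replicates and 30.4, 29.6 and 30.3 FPKM in MSTN-KO replicates 1 to 3. The 3 MSTN-KO values fell inside the range of the WT values, which WT replicate 1 widened to 1.61-fold. Its change of -0.001 on the log2 scale did not pass (limma adjusted p = 0.997), with a 95% interval from -0.35 to 0.35.

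**Figure D2:**
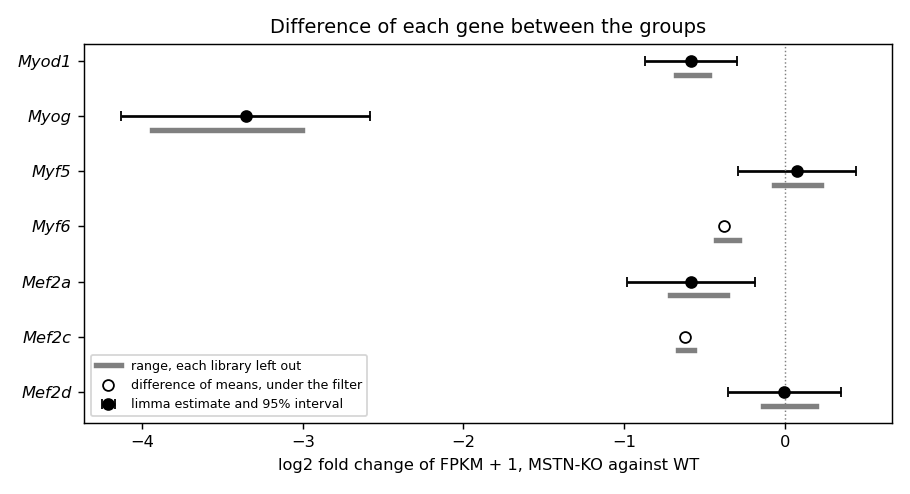
log2 fold change of FPKM + 1 in MSTN-KO against WT for each gene, as limma's estimate with its 95% interval (filled points) or, under the filter, as a difference of means (open points), with the range over the 6 fits that leave out 1 library (grey bars). *Myog* lies at -3.36, and the intervals of *Myf5* and *Mef2d* include 0.

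Single members were also compared without the other genes, by a two-sided exact permutation test of log2(FPKM + 1) over the 20 regroupings of the 6 libraries. *Myod1*, *Myog*, *Myf6*, *Mef2a* and *Mef2c* each gave p = 0.1, the smallest that 3 libraries against 3 allow, while *Myf5* gave 0.8 and *Mef2d* 1 (exact tests). Thus 5 of the 7 members lay lower in each MSTN-KO library than in any WT library, as did 17.1% of all 14548 genes. These are bulk cultures, in which fewer cells expressing a gene and less RNA per cell cannot be told apart.

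FPKM is per length, so the levels of the 7 genes could be ordered. In WT, *Myod1* and *Myog* were highest with overlapping ranges, followed by *Mef2d*, by *Mef2a* and *Myf5* with overlapping ranges, and by *Mef2c* and *Myf6*. In MSTN-KO, *Myod1* was highest, *Mef2d* followed, and *Myog* came down into the range of *Myf5* and *Mef2a*. *Mef2c* and *Myf6* were lowest again, and their ranges overlapped.

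The make-up of the MRF transcripts changed with these levels. The summed MRF level was 356, 300 and 185 FPKM in the WT replicates and 113, 116 and 125 FPKM in the MSTN-KO replicates. *Myog* made up 49.2%, 49.3% and 25.6% of it in WT and 6.47%, 8.84% and 9.29% in MSTN-KO. *Myod1* made up 47.1%, 47.3% and 68.1% in WT and 82.8%, 78.3% and 83.1% in MSTN-KO. WT replicate 3 lay between the other WT libraries and the MSTN-KO libraries in both shares. The share of *Myf5* was 3.63%, 3.25% and 6.12% in WT and 10.7%, 12.7% and 7.61% in MSTN-KO.

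**Figure D3:**
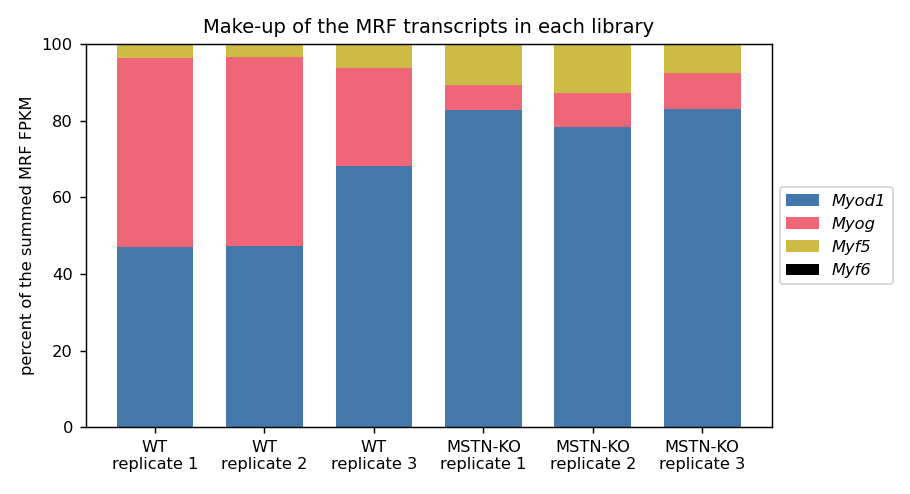
Percent of the summed MRF FPKM that each of the 4 genes made up, in each library (stacked bars). *Myog* takes 25.6% to 49.3% in WT and 6.47% to 9.29% in MSTN-KO, and *Myf6*, at most 0.199%, is too small to see.

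A ratio of 2 members within a library does not depend on how the library was scaled. *Myog* stood at 1.05, 1.04 and 0.376 times *Myod1* in the WT replicates and at 0.0781, 0.113 and 0.112 times in the MSTN-KO replicates. The log2 ratio was lower in MSTN-KO by a difference of -2.90. The log2 ratio of *Myf5* to *Myod1* was higher by 0.67 and that of *Mef2d* to *Mef2a* by 0.65, without overlap between the groups. The log2 ratios of *Myf6* to *Myod1* and of *Mef2c* to *Mef2a* differed by -1.84 and -2.41, also without overlap. The ratio of *Myog* to *Mef2c* overlapped, with a difference of -0.43. These ratios were taken without a pseudocount, and the 3 with *Myf6* or *Mef2c*, both under 1 FPKM, depended on that choice. With a pseudocount of 1 the differences were 0.20 for *Myf6* to *Myod1*, -0.04 for *Mef2c* to *Mef2a* and -2.74 for *Myog* to *Mef2c* (exact permutation p = 0.5, 0.9 and 0.1). Of the 6 ratios without a pseudocount, 5 gave p = 0.1 in a two-sided exact permutation test (adjusted p = 0.12 over the 6) and the last 0.8. No p under 0.1 was possible with 3 libraries against 3.

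The genes with the pattern most like that of *Myog* were *Tnnc1* (slow and cardiac troponin C), *Mybph* (myosin binding protein H), *Tnni1* (slow troponin I), *Myl1* (a myosin light chain) and *Actc1* (cardiac actin). Likeness was the Euclidean distance between log2(FPKM + 1) values centred on each gene's mean over the 6 libraries, among 10836 tested genes. These distances were 0.397 to 0.738, against a median of 4.398 over all genes. *Tnnc1* had 162, 185 and 54.4 FPKM in the WT replicates and 7.78, 10.7 and 15.2 FPKM in the MSTN-KO replicates, so that WT replicate 3 was low here too. Nearest to *Myod1* were *Rusc1*, *Tmcc2*, *Spry1*, *Traf4* and *Ccnd3*, the gene of cyclin D3, at distances of 0.0466 to 0.1498 against a median of 0.916. Nearest to *Mef2c* were *Sgcb*, the gene of beta-sarcoglycan, *1110002E22Rik*, *Noct*, *Lrrc8d* and *Tcaf2*, at 0.135 to 0.162 against a median of 0.901. With a pseudocount of 1, the low level of *Mef2c* compresses its pattern, so these genes had smaller folds than *Mef2c* itself.

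The target list held 30 genes that textbooks name as targets of the MRFs and MEF2. It was chosen with earlier results of these data known, and its direction is no independent evidence. Of the 27 that passed the filter, 27 were called lower and 0 higher in MSTN-KO, against 8.96% and 8.78% of all tested genes. Their median log2 fold change was -1.98 (median over all tested genes -0.001). *Ckm*, *Myh3*, *Mybph*, *Cdkn1c*, *Klhl41* and *Cav3* were under 1 FPKM in every MSTN-KO library, so they passed the filter through WT alone. Their calls are not separate from the filter. With a filter on the mean instead, 26 targets were called lower. On the log2(FPKM + 1) scale the largest falls were of *Mylpf* (-4.02), a fast myosin light chain, *Tnni1* (-3.76), *Mybph* (-3.66) and *Myl1* (-3.63). By the ratio of the group means the order differed. *Mybph* (42.8-fold), *Myh3* (30.7-fold), an embryonic myosin heavy chain, and *Ckm* (21.3-fold), muscle creatine kinase, came ahead of *Mylpf* (18.9-fold). The MSTN-KO means of *Mybph*, *Myh3* and *Ckm* were only 0.490, 0.309 and 0.491 FPKM, against 16.5 FPKM for *Mylpf*. The smallest fall on the log2 scale was of *Chrnb1* (-0.60), a subunit of the acetylcholine receptor. Without any single library 25 to 27 were called lower. Relative to the WT mean, the median deviation of the 27 genes on the log2 scale was 0.27, 0.50 and -0.80 in WT replicates 1, 2 and 3. It was -2.22, -1.75 and -1.88 in the MSTN-KO replicates. WT replicate 3 was the lowest WT library for 24 of the 27 targets and above every MSTN-KO library for 27.

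**Figure D4:**
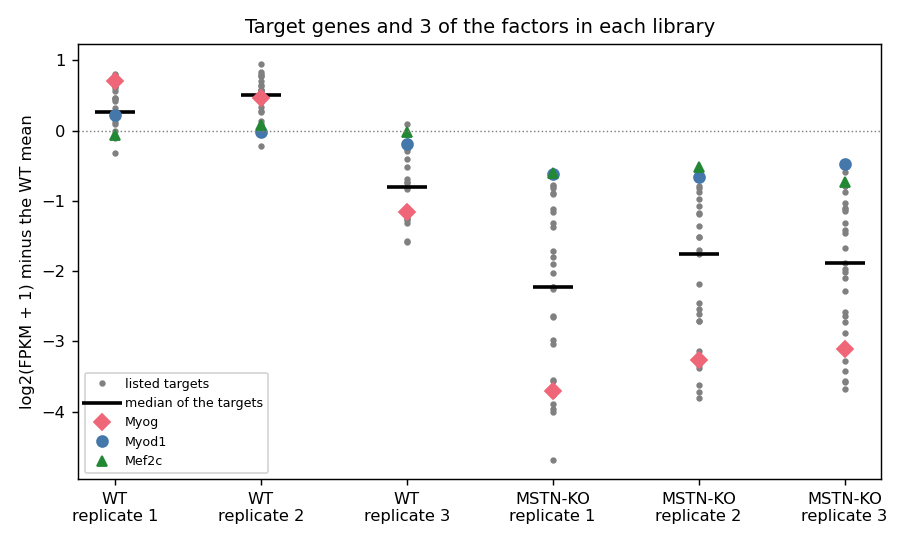
log2(FPKM + 1) minus the WT mean in each library for the 27 tested targets (grey points, with their median as a bar) and for *Myog*, *Myod1* and *Mef2c*. The median of the targets is -0.80 in WT replicate 3 and between -2.22 and -1.75 in MSTN-KO, and *Myog* lies further from 0 than this median in these 4 libraries.

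Of the partners and regulators of the factors, 69 genes were listed and 64 analysed, and 57 passed the filter. Here 9 were called lower (15.8%) and 9 higher (15.8%), against 8.96% and 8.78% of all tested genes. The median log2 fold change was -0.15. The same shares over all genes apply to the counts by role below. Scaled to the same summed FPKM, 16 were called lower and 1 higher, and of all 10837 tested genes 2367 and 350. The calls of higher genes below therefore depend on the scaling.

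E proteins are the dimer partners of the MRFs, and 0 of 3 were called. *Tcf3* had 84.6 ± 7.63 FPKM (SD, n = 3) in WT and 91.0 ± 6.31 FPKM in MSTN-KO. The log2 fold changes of *Tcf3*, *Tcf4* and *Tcf12* were 0.11, -0.17 and -0.35 (limma adjusted p = 0.587, 0.525 and 0.207).

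Id proteins bind E proteins and keep them from DNA. Of the 3 tested, *Id2* was called lower, with 60.1 ± 1.04 FPKM in WT and 38.7 ± 6.32 in MSTN-KO (SD, n = 3, limma adjusted p = 0.00663). *Id1* and *Id3* were at 203 ± 23.0 and 313 ± 39.2 FPKM in WT and at 191 ± 77.05 and 254 ± 68.7 FPKM in MSTN-KO, within the spread of the libraries. *Id4* reached at most 0.1798 FPKM.

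Of 13 other inhibitors, 2 were called lower and 3 higher. The Notch target *Heyl* fell by 2.32 on the log2 scale, with 6.71, 6.11 and 3.48 FPKM in WT against 0.201, 0.392 and 0.1796 in MSTN-KO (limma adjusted p = 7.67e-06). *Heyl*, under 1 FPKM in every MSTN-KO library, passed the filter through WT alone. *Hes6* fell by 0.89, and unlike the rest of this list it is known to favour muscle differentiation by opposing HES1. *Snai1*, a repressor that competes for E-boxes, rose by 0.72 (limma adjusted p = 0.0092). *Twist2* rose by 0.45 and *Hes1* by 0.44.

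Of 9 factors upstream of the MRFs, 1 was called lower and 2 higher. *Pax7*, the satellite cell factor, was low, at 1.32, 0.901 and 0.836 FPKM in WT and 2.03, 3.02 and 1.501 FPKM in MSTN-KO. Its groups did not overlap, and it was called higher by 0.64 (limma adjusted p = 0.0415). *Six5* was called higher by 0.73 (limma adjusted p = 0.0136).

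Class IIa histone deacetylases bind MEF2 proteins and repress their targets. *Hdac7* was called higher, at 17.5 ± 1.81 FPKM in WT and 24.5 ± 2.31 in MSTN-KO (SD, n = 3, limma adjusted p = 0.032). *Hdac5* was at 35.3 ± 7.57 and 45.6 ± 0.538 FPKM (limma adjusted p = 0.0965), *Hdac4* at 5.34 ± 1.29 and 4.67 ± 1.26 FPKM (0.590) and *Hdac9* at 1.92 ± 0.388 and 1.20 ± 0.698 FPKM (0.175).

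Of 25 genes listed as coactivators, not all of which are such, as the list also holds signalling enzymes, 5 were called lower and 3 higher. The largest changes were those of *Csrp3* (-2.0), *Stac3* (-1.31), *Ankrd2* (-1.31) and *Map2k6* (0.79), a kinase that activates p38. Muscle cells express *Csrp3*, *Stac3* and *Ankrd2* as they differentiate. The group means of *Csrp3* differed 27.9-fold, of *Stac3* 2.85-fold and of *Ankrd2* 33.2-fold. *Csrp3* and *Ankrd2* were under 1 FPKM in every MSTN-KO library and passed the filter through WT alone. The lowest WT library of *Stac3* was 1.10 times its highest MSTN-KO library. Without the filter *Stac3* was not called (limma adjusted p = 0.0969). *Stac3* is known for its part in excitation-contraction coupling rather than as a coactivator. *Ep300* and *Smarca4*, general coactivators, had log2 fold changes of -0.12 and 0.09 and were not called.

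**Figure D5:**
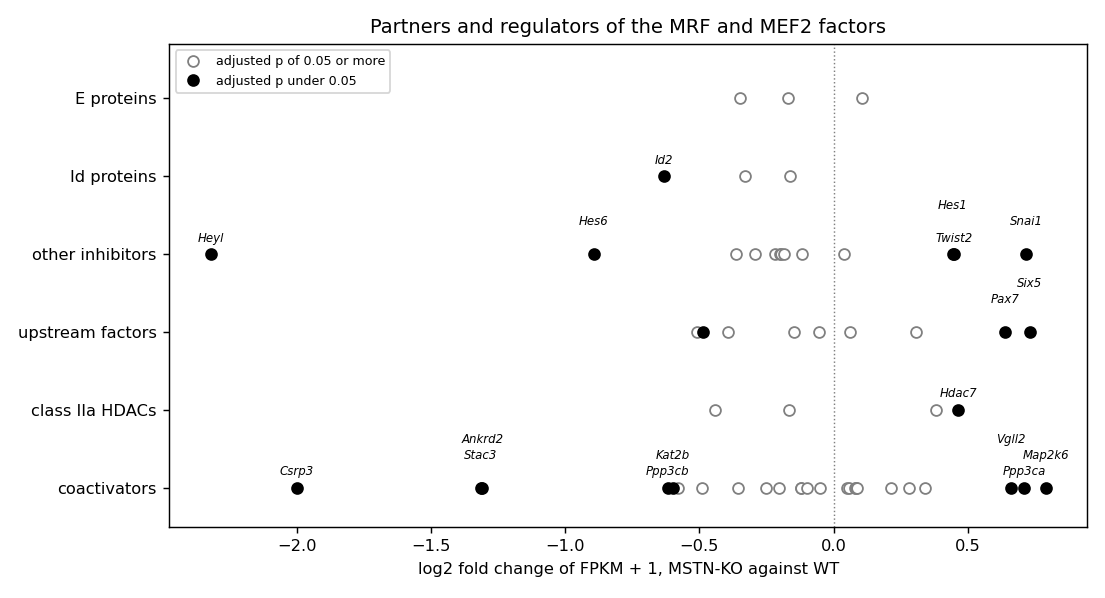
log2 fold change of FPKM + 1 in MSTN-KO against WT of the 57 tested partners and regulators, in rows by role, with filled points for genes with an adjusted p under 0.05, all but 1 of them named. The 3 E proteins lie within -0.35 and 0.11 of 0 with none called, and *Heyl* (-2.32) and *Csrp3* (-2.0) lie furthest from 0.

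Markers of the state of the cultures were set beside these results. For comparison with the counts below, 8.96% of all tested genes were called lower and 8.78% higher. Their sums were taken from FPKM as provided, without scaling each library to the same summed FPKM over all genes. That library total was higher in each MSTN-KO library than in any WT library, and comparisons of the sums between the groups carry this difference. Divided by the library total, the smooth muscle and fibroblast sums given below overlapped between the groups. The myoblast sum stayed lower and the adipocyte sum higher in each MSTN-KO library than in any WT library. The sum of the proliferation markers, which overlaps as provided, was then lower in each MSTN-KO library than in any WT library, by a narrow margin. No test was run on the scaled sums. Of 11 markers of proliferating cells, *Ccnb1* was called lower (-0.52) and *Mcm5* higher (0.47), and their summed level was 837 to 1060 FPKM in WT and 901 to 1103 FPKM in MSTN-KO. The highest WT sum was that of replicate 3. Of 10 myoblast markers, 5 were called lower and *Pax7* higher. Their sum was 1036 to 1424 FPKM in WT and 692 to 816 FPKM in MSTN-KO. Of this sum, *Des* alone had 576 to 807 FPKM in WT and 325 to 409 FPKM in MSTN-KO. It is also on the target list, so this sum is not separate from the targets. Fibroblast markers summed to 357 to 494 FPKM in WT and 556 to 621 FPKM in MSTN-KO, with 2 of 6 called lower and 2 higher. Their defining gene *Pdgfra* reached at most 0.755 FPKM. Smooth muscle markers had 2 of 6 lower and 3 higher. They summed to 1313 to 1374 FPKM in WT and 1465 to 1932 FPKM in MSTN-KO. Of these, *Acta2* had 1115 to 1137 FPKM in WT and 1353 to 1798 FPKM in MSTN-KO, and *Myh11* was at or near 0 throughout. Of 7 adipocyte markers listed, 4 were analysed, and 2 of the 3 tested were called higher. The sums of the 4 were 10.8 to 11.4 FPKM in WT and 24.2 to 25.2 FPKM in MSTN-KO. *Cebpa*, called higher, had means of 5.17 FPKM in WT and 16.0 FPKM in MSTN-KO, while *Plin1* reached at most 0.0639 FPKM. Osteoblast markers had 0 of 3 called. Among the markers called higher, *Lmod1* and *Mylk* (smooth muscle), *Mfap5* (fibroblast) and *Fabp4* (adipocyte) were under 1 FPKM in every WT library. They passed the filter through MSTN-KO alone, and *Fgfr4* (myoblast), called lower, passed it through WT alone. These calls are not separate from the filter. The part of the marker changes in the results for the 7 factors was not tested.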

How the data were processed

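Messenger RNA of 6 libraries was analysed, 3 WT and 3 MSTN-KO. The authors provided FPKM, 1 file for each library, and no replicates were pooled. The submitters' processing notes name Bowtie 0.12.2 and the build mm8, and the annotation behind the values is not given in the sources used here. Symbols, positions and exon lengths came from GENCODE M21 (GRCm38), where 14445 of 14548 identifiers matched. The members and lists were chosen with earlier results of these data known.

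Genes that reached 1 FPKM in any library were tested as log2(FPKM + 1) with limma 3.58.1 (R 4.3.3, eBayes with a trend), and the adjusted p covers all genes tested. Every E protein, Id protein and class IIa HDAC was named, along with up to 4 called genes of largest change in each other list and the 5 genes nearest to *Myod1*, *Myog* and *Mef2c*. *Ep300*, *Smarca4*, *Chrnb1*, *Myh3*, *Ckm*, *Hes1*, *Pdgfra*, *Acta2* and *Myh11* were chosen after their values were seen. So were *Cdkn1c*, *Klhl41*, *Cav3*, *Fgfr4*, *Mfap5*, *Lmod1*, *Mylk*, *Cebpa*, *Fabp4* and *Plin1*. Length and GC content were corrected for with mgcv 1.9.3, and figures were drawn with matplotlib 3.10.9. Libraries of the same number correlated at -0.0153, -0.128 and -0.142 in their deviations from the group means, which gave no sign of pairing. With 3 libraries in each group this cannot exclude that equal numbers share a culture. The values of 1 called upstream factor are not reported here.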

Additional observations from a re-analysis of the deposited data

How the results depend on the processing

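*Myog* and *Myod1* kept their direction and call under every alternative run. *Mef2a* lost its call without the filter (log2 fold change -0.58, adjusted p = 0.115), without limma's trend (-0.58, 0.0525), with quantile normalization (-0.51, 0.0555) and with a pseudocount of 0.1 and no filter (-0.64, 0.0891), a setting added after the values had been seen. Without the filter *Myf6* (-0.38) and *Mef2c* (-0.62) could be tested and passed. With a pseudocount of 0.1 they stood at -1.48 and -2.01, with and without the filter, and 500 genes met the DEG criteria in the lower and 254 in the higher direction, against 249 and 131. Scaled to the same summed FPKM, *Myf5* was at -0.19 and *Mef2c* at -0.79, 2367 genes were called lower and 350 higher, 510 met the DEG criteria in the lower direction, and 16 regulators were called lower and 1 higher. With a pseudocount of 1 the difference in log2 ratio turned from -1.84 to 0.20 for *Myf6* to *Myod1*, shrank from -2.41 to -0.036 for *Mef2c* to *Mef2a* and grew from -0.43 to -2.74 for *Myog* to *Mef2c*. The cause of these shifts was not tested.

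With 1 library left out, the log2 fold change ranged from -0.064 to 0.23 for *Myf5*, from -0.13 to 0.20 for *Mef2d* and from -0.71 to -0.36 for *Mef2a*, and the log2 ratio of *Myog* to *Mef2c* from -1.39 to 0.088. All genes called lower numbered 606 (without WT replicate 2) to 1251 (without MSTN-KO replicate 2), and those called higher 423 to 1184 for the same libraries. Regulators called lower numbered 5 to 12 and higher 3 to 8. With a replicate block, *Myod1* had an adjusted p of 0.00652 and *Mef2a* of 0.0222, 1001 genes were called lower, and the block changed no call of a member. The correlations given above showed no sign that the numbers pair the libraries, and cannot exclude it. Depth limits *Myf6*, at an estimated 1 to 15 fragments.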
